A study of Mus musculus with 20 samples.

Results

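The genes described here are 38 members of the cardiac calcium handling machinery, followed over 4 groups of mouse hearts. They were listed by symbol, and the list was drawn up with earlier results of these data known. Of the 38, 10 act at the sarcolemma, 10 at the junction between the sarcolemma and the sarcoplasmic reticulum, and 8 in or on the reticulum. A further 8 encode calcium/calmodulin-dependent kinase II (CaMKII), calmodulin and calcineurin, and 2 act in mitochondria. All 38 were found among the 55335 gene IDs of the deposited table, and all 38 were tested, among 14878 genes whose counts were high enough. The hearts came from C57BL/6N mice aged 3 to 5 months that were fed an NIH-31 diet. OGFOD1-knockout (KO) and wild-type (WT) mice had each received isoproterenol or vehicle from an osmotic minipump for 2 weeks. The 4 groups were thus KO with isoproterenol, WT with isoproterenol, KO with vehicle and WT with vehicle, with 5 libraries in each. Phosphate-buffered saline with sodium ascorbate was the vehicle, and the isoproterenol solution held both as well. How the Ogfod1 gene was disrupted is not given in the sources used here. OGFOD1 is a prolyl hydroxylase that acts on the ribosomal protein Rps23. Isoproterenol stimulates beta-adrenergic receptors, and giving it over a long time enlarges the mouse heart.

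In a heart muscle cell, the action potential opens L-type calcium channels in the sarcolemma, and the calcium that enters opens ryanodine receptors of the facing reticulum. The calcium released by these receptors starts contraction, and the heart relaxes when the reticulum pump SERCA takes calcium back up and the sodium-calcium exchanger moves the rest out of the cell. Phospholamban restrains the pump until kinases downstream of the beta-adrenergic receptor phosphorylate it, while CaMKII and calcineurin read calcium through calmodulin.

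Total counts were 14609808 to 43671055 per library, of which 55.5% to 61.9% were from the mitochondrial genome, and the 38 members together took 2.91% to 3.43% of the nuclear counts. Levels are given as CPM, the count scaled to library size after TMM normalization. Ogfod1, the targeted gene, was low in every KO library, at 2.39 to 4.13 CPM in KO isoproterenol, 18.7 to 21.8 in WT isoproterenol, 2.49 to 4.08 in KO vehicle and 16.9 to 20.9 CPM in WT vehicle libraries. Defining cardiomyocyte markers were abundant in every library, and none of the 10 listed was at 0. Whether the 5 libraries of a group are 5 different mice is not stated in the labels, so p-values measure the spread between libraries. A pair of libraries stood apart. In WT vehicle replicate 2 the RNA Gm42418 took 0.897% of counts, against a median of 0.0148% over the 20 libraries. In KO isoproterenol replicate 5 the 8 smooth muscle and pericyte markers summed to 3634 CPM, against 747 to 789.8 CPM in the other 4 libraries of its group. Where a call of a member ended or began without both of these libraries, the values without them, or without the single library concerned, are given too.

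Both calmodulin genes among the members, Calm2 and Calm3, rose under isoproterenol, and they are known to encode the same protein from different DNA. Within the coding sequence, a read can be assigned to a calmodulin gene only through differing bases. The whole transcripts are longer, at 1205 bases for Calm2 and 2290 for Calm3. The opening 90 bases of the 450-base coding sequences (GENCODE vM21 transcripts, GRCm38) are shown with the differences in capitals:
Calm2 (chromosome 17): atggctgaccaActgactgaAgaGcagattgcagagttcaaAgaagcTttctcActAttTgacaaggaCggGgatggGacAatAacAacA
Calm3 (chromosome 7): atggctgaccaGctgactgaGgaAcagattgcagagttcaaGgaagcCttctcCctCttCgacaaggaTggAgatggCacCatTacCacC
There were 15 mismatches in this stretch, and the coding sequences were 82.7% identical over their 450 bases. Of the 100-base windows of the Calm2 transcript, 0.99% were found in another annotated gene, as were 0.14% of those of Calm3.

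Promoter sequences (RefSeq, GRCm38.p6) matched 26 of the 38 members, with 32 promoters in all. Those of Cacna2d1 and Hrc, which fell in both genotypes, are shown as the 250 bases before the annotated start, 5′ to 3′ on the gene's strand. Capitals mark TGACG, the core of the cyclic AMP response element, which was searched on both strands because beta-adrenergic receptors signal through cyclic AMP:
Cacna2d1 (chr5:15934441-15934690, plus strand): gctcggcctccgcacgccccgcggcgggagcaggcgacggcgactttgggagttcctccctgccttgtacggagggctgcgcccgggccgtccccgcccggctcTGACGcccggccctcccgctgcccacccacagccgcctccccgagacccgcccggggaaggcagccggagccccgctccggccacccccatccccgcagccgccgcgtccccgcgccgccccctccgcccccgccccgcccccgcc
Hrc (chr7:45335019-45335268, plus strand): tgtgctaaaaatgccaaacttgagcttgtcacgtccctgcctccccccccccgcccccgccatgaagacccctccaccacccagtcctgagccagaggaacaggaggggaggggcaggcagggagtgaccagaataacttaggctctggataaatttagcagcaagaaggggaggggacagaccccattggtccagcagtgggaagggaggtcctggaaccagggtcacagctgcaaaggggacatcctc
The motif began 146 bases before the start in Cacna2d1, and its letters were not in the Hrc window. In windows that also held the 50 bases after the start, TGACG was in 11 of the 32 member promoters. It was in 6837 of all 32851 promoters, or 20.8%. The motif holds a CpG dinucleotide, and member promoters had a median of 21 of these against 7 in all promoters. Median GC was 63.3% against 52.7%, and the part of composition in the motif count was not tested. The full element TGACGTCA was in 0 of the 32 and in 1.79% of all. The shown stretches also differ in base composition. That of Cacna2d1 held 36 CpG dinucleotides and that of Hrc held 3. On GRCm38 the protein-coding gene Cacna2d1 spans 15934691 to 16374511 of chromosome 5 and Hrc spans 45335290 to 45338974 of chromosome 7 in GENCODE vM21. A match of letters is a description and not a binding site.

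The members spanned a wide range of levels when CPM was divided by exon length, counting every annotated exon of a gene. Single transcripts can be shorter, so levels and their order depend on this choice. For Slc8a1 the exons came to 18807 bases, while a coding transcript of it had 3180. Per kilobase, Atp2a2, which encodes SERCA, had the highest mean at 849.7 CPM over the 20 libraries. It was followed by Pln, which encodes phospholamban, at 509.7, by S100a1 at 461, by the cardiac calsequestrin Casq2 at 145 and by sarcalumenin (Srl) at 111 CPM per kb. The ranges of Pln and S100a1 over the libraries overlapped, at 415 to 608 and 351 to 580.1 CPM per kb, so their order is not fixed by these data. Ryr2, the cardiac ryanodine receptor, averaged 96.8, Slc8a1, the sodium-calcium exchanger, 36.9, and Cacna1c, the pore of the L-type channel, 19.7 CPM per kb. At the low end lay Cacna1d at 0.358 and Fkbp1b at 0.407 CPM per kb, and Fkbp1b rested on 4 to 24 counts per library.

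**Figure D1:**
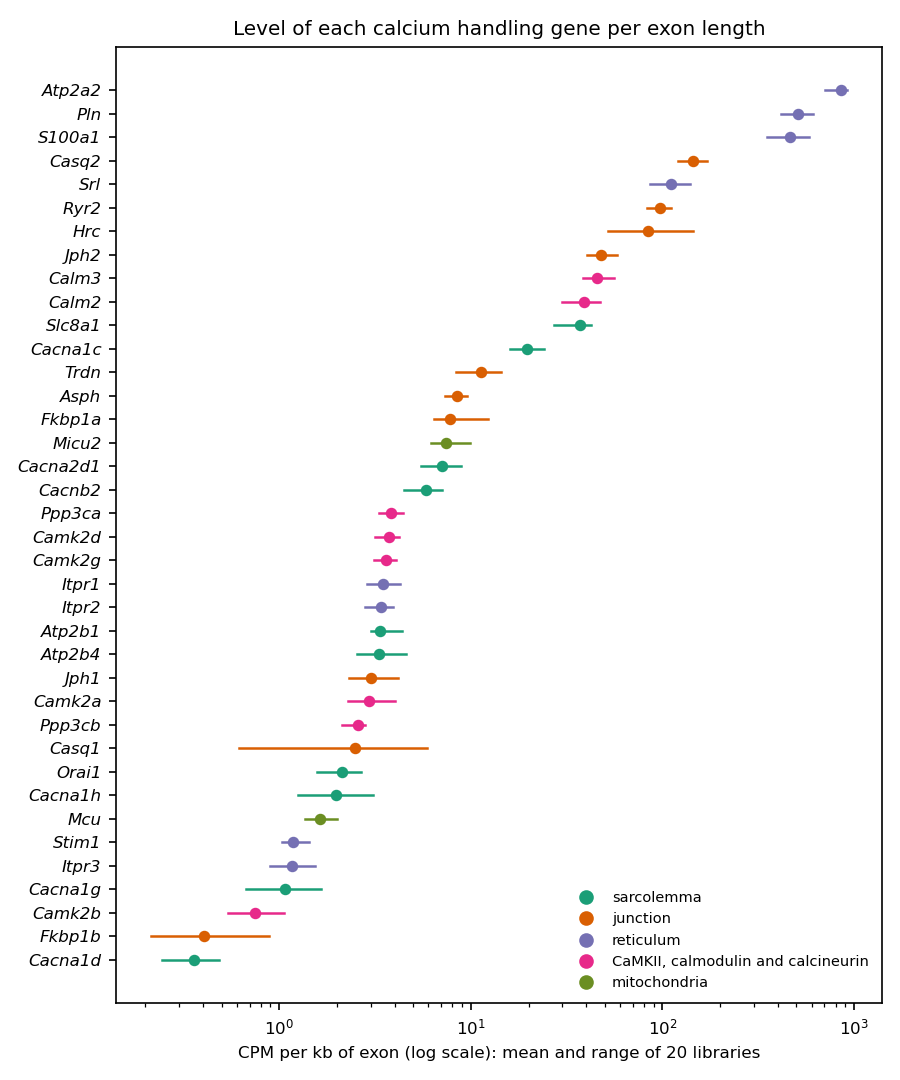
Level of each of the 38 genes in CPM per kb of exon on a log scale. Points are means and lines the range over the 20 libraries, coloured by compartment. Atp2a2 is at the top with 849.7 CPM per kb and Cacna1d at the bottom with 0.358.

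Within families the shares per length were uneven. Cacna1c made up 79.8% to 89.2% of the 4 pore subunits listed, and Casq2 made up 95.4% to 99.5% of calsequestrin. Jph2, the cardiac junctophilin that ties the reticulum to the sarcolemma, took 92.2% to 95.4% of the junctophilins. The CaMKII genes were more even on this scale. Camk2d held 28.9% to 37.6%, Camk2g 26.9% to 37.9%, Camk2a 21.8% to 33.1% and Camk2b 5.29% to 9.33% of the family over the 20 libraries. These shares depend on exon length, which was 22493 bases for Camk2d, 6401 for Camk2g and 7465 for Camk2a. Without division by length, Camk2d was the highest of the family, with group means of 77.15 to 90.01 CPM. Camk2g had group means of 22.57 to 24.46 CPM and Camk2a of 19.68 to 25.68 CPM.

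Isoproterenol shifted a minority of the members by small amounts. Averaged over the genotypes, Calm2, Calm3, Ryr2 and Cacna1c rose, while Hrc, Cacna2d1, Camk2b, S100a1, Trdn, Jph2 and Camk2d fell. Expressed as a fold of the vehicle level, these ran from 0.706 for Hrc to 1.26 for Calm2. These 11 calls were 28.9% of the 38 members, and 18.8% of all tested genes passed the same comparison, 9.76% higher and 9.07% lower. In KO hearts 7 members passed (3 higher, 4 lower), or 18.4% of the 38, against 9.03% of all genes (4.75% higher, 4.29% lower). In WT hearts 8 members passed (2 higher, 6 lower), or 21.1%, against 8.76% of all genes (4.64% higher, 4.12% lower). Passing means an adjusted p (Benjamini-Hochberg over all 14878 genes) under 0.05 in edgeR's quasi-likelihood test. The median log2 fold change of the members was −0.05 in KO and −0.05 in WT hearts, beside 0.01 and 0.00 for all genes. Cacna2d1, Hrc, Calm2 and Calm3 passed in both genotypes. Of the 38 members, 25 passed in none of the 7 comparisons made. With both libraries that stood apart left out, 8 members passed in KO, 9 in WT and 13 averaged over genotypes.

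Markers of cell types moved in the same comparison. Of 10 cardiomyocyte markers, 7 fell and none rose when averaged over genotypes, with a median log2 change of −0.17. Their summed level was 56770 to 61320 CPM in KO isoproterenol libraries, apart from 47550 CPM in replicate 5, against 64340 to 66960 CPM in KO vehicle libraries. In WT it was 58260 to 62390 CPM with isoproterenol against 67290 to 72340 CPM with vehicle. Of 8 fibroblast markers 6 rose. In KO libraries their sums were 734 to 949 CPM with isoproterenol, apart from 1992 CPM in replicate 5, against 548 to 660 CPM with vehicle. In WT libraries the sums were 718 to 880 CPM with isoproterenol against 518 to 632 CPM with vehicle. Of 8 macrophage markers 6 also rose. Their part in the members' results was not tested. In whole hearts, fewer cells of a type and less RNA per cell cannot be told apart.

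**Figure D2:**
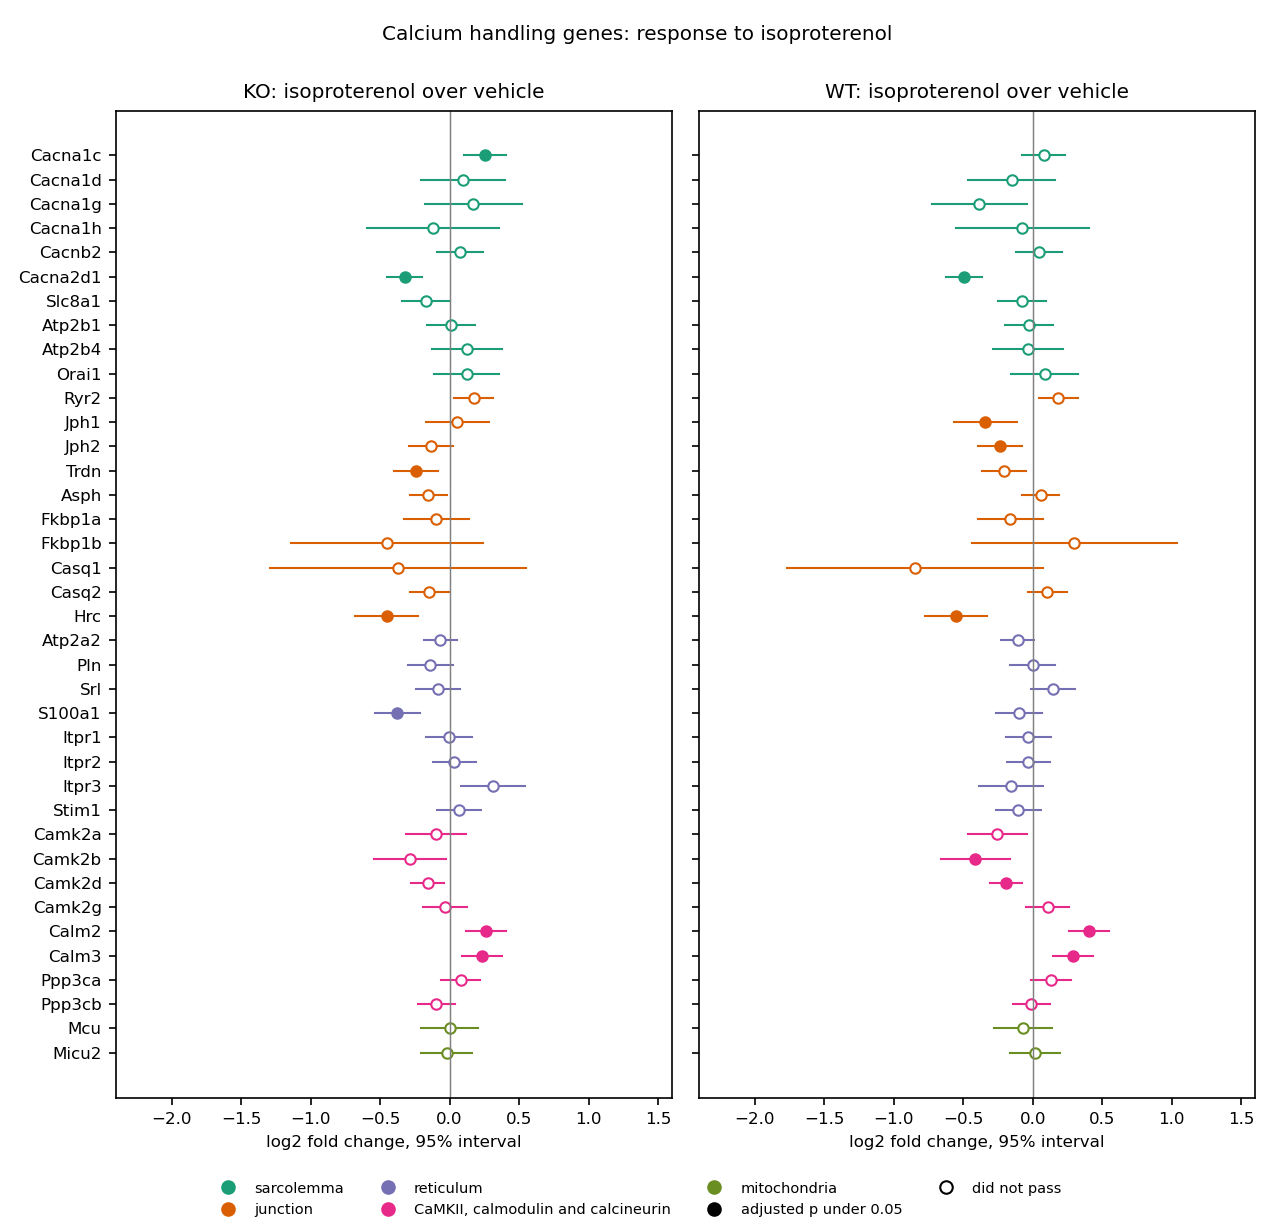
Log2 fold change of isoproterenol over vehicle for the 38 genes in KO hearts (left) and WT hearts (right), 5 libraries per group. Points are estimates, lines are 95% intervals and filled points passed at an adjusted p under 0.05. Cacna2d1, Hrc, Calm2 and Calm3 are filled in both panels.

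At the sarcolemma, Cacna2d1 fell and the pore gene Cacna1c rose. Cacna2d1 encodes an extracellular auxiliary subunit that raises the surface density of calcium channels. Its level was 76.7, 74.2, 79.2, 78.8 and 68.4 CPM in the KO isoproterenol libraries, against 95.1, 85.2, 105, 88.9 and 98.5 CPM in KO vehicle libraries. In WT hearts it was 72.5, 73.9, 74.1, 80.7 and 76.4 CPM with isoproterenol, against 103, 106, 105, 107 and 111 CPM with vehicle. All 10 isoproterenol libraries lay below all 10 vehicle libraries. On the log2 scale the change was −0.32 (SE 0.060, edgeR adjusted p = 6.42e-04) in KO and −0.49 (SE 0.060, adjusted p = 2.37e-06) in WT hearts. The difference between the responses of KO and WT was 0.17 (SE 0.085, adjusted p = 0.657). Among the 38 members, Cacna2d1 was 1 of 4 whose call in WT hearts held in all 29 alternative analyses.

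Cacna1c, which carries the L-type current of the ventricle, had 449.5, 493, 509, 452 and 376 CPM in KO isoproterenol libraries, against 414, 418, 339.5, 398 and 342 CPM in KO vehicle libraries. WT hearts had 427, 437, 412, 434 and 424 CPM with isoproterenol, against 414, 393, 384, 437 and 395 CPM with vehicle. In KO hearts 4 of the 5 isoproterenol libraries lay above every vehicle library, while the WT groups overlapped. The fitted log2 change was 0.25 (SE 0.072, edgeR adjusted p = 0.0227) in KO hearts and 0.08 (SE 0.072, adjusted p = 0.560) in WT hearts, and the responses did not differ detectably, at 0.18 (SE 0.10, adjusted p = 0.687). The KO call was lost in 5 of 29 alternatives. The averaged call, at 0.17 (SE 0.051, adjusted p = 0.0207), was lost in 1 of 28, where KO vehicle replicate 3 was left out and the adjusted p was 0.0564.

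Slc8a1, which extrudes calcium in exchange for sodium, was at 752, 628, 668, 588 and 514 CPM with isoproterenol and 679.9, 788, 745, 702 and 627 CPM with vehicle in KO libraries. It was at 619.8, 688, 739.6, 665 and 794 CPM with isoproterenol and 801, 755, 708, 713 and 717 CPM with vehicle in WT libraries. The groups overlapped in both genotypes, and neither −0.17 in KO (adjusted p = 0.207) nor −0.08 in WT hearts (adjusted p = 0.632) passed in edgeR's test. The 95% interval of the averaged change ran from −0.24 to −0.00 on the log2 scale.

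The other sarcolemmal members did not pass for isoproterenol. They were the L-type pore Cacna1d (3.07 to 6.14 CPM over the 20 libraries), the T-type pores Cacna1g (6.78 to 16.7) and Cacna1h (12.2 to 30.0), and the plasma membrane calcium pumps Atp2b1 (45.6 to 66.7) and Atp2b4 (31.3 to 56.5 CPM). The store-operated channel Orai1 (3.63 to 6.16 CPM) and the intracellular channel subunit Cacnb2 did not pass either. Of these, Cacna1g had the largest fold change, at −0.38 (SE 0.16, adjusted p = 0.154) in WT and 0.17 (SE 0.17, adjusted p = 0.592) in KO hearts.

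At the junction, the release channel Ryr2 rose while the reticulum proteins Hrc and Trdn and the junctophilin Jph2 fell. Ryr2 had 3049, 3013, 3126, 2847 and 2381 CPM in KO isoproterenol libraries, against 2589, 2665, 2590, 2519 and 2433 CPM in KO vehicle libraries. WT hearts had 2800, 3193, 3140, 2919 and 3103 CPM with isoproterenol, against 2568, 2902, 2498, 2691 and 2682 CPM with vehicle. In each genotype 4 of 5 isoproterenol libraries lay above every vehicle library. KO isoproterenol replicate 5 was below every KO vehicle library. As a log2 fold change this was 0.17 (SE 0.066, edgeR adjusted p = 0.103) in KO and 0.18 (SE 0.066, adjusted p = 0.0801) in WT hearts, so that neither passed alone, and 0.18 (SE 0.047, adjusted p = 0.00720) when averaged. KO isoproterenol replicate 5 was itself low for Ryr2, so leaving it out raises the KO estimate. With both libraries that stood apart left out, the changes passed in KO at 0.24 (adjusted p = 0.00185) and in WT at 0.21 (adjusted p = 0.00464).

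Hrc encodes the histidine-rich calcium-binding protein of the reticulum lumen. Its level was 176, 168, 197, 163 and 134 CPM in KO isoproterenol libraries, against 199, 236, 249, 225 and 239.9 CPM in KO vehicle libraries. In WT hearts the values were 200.5, 194, 196, 178 and 169 CPM with isoproterenol, against 241, 369, 255, 272 and 239.7 CPM with vehicle. The groups did not overlap in either genotype, and WT vehicle replicate 2 was the highest of all. The change on the log2 scale was −0.45 (SE 0.11, edgeR adjusted p = 0.00860) in KO and −0.55 (SE 0.11, adjusted p = 0.00173) in WT hearts. Averaged over genotypes it was −0.50, and −0.40 (adjusted p = 2.01e-07) with both libraries that stood apart left out.

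Trdn encodes triadin, which anchors calsequestrin to the ryanodine receptor. It measured 103, 93.1, 100.4, 96.3 and 78.2 CPM in KO isoproterenol libraries, against 102, 108, 122, 114 and 110.4 CPM in KO vehicle libraries. For WT hearts the values were 104, 89.3, 111, 98.8 and 105 CPM with isoproterenol, against 120.1, 134, 109.7, 107 and 115 CPM with vehicle. In each genotype 4 of 5 isoproterenol libraries lay below every vehicle library. The fall was −0.22 (SE 0.053, edgeR adjusted p = 0.00308) on the log2 scale when averaged. In KO hearts it was −0.24 (SE 0.075, adjusted p = 0.0390), a call lost in 10 of 29 alternatives, and WT hearts had −0.20 (SE 0.075, adjusted p = 0.0843). With both libraries left out the KO change was −0.18 (adjusted p = 0.0769). Without KO isoproterenol replicate 5 alone it was −0.18 (adjusted p = 0.116).

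The junctophilins hold the sarcolemma and the reticulum together. Jph2 was at 184, 208, 191, 184 and 171 CPM in KO isoproterenol libraries, against 197, 227, 188, 203 and 214 CPM in KO vehicle libraries. It was at 173, 233, 192, 173 and 185 CPM in WT isoproterenol libraries, against 201, 222, 233, 247 and 223 CPM in WT vehicle libraries. In WT hearts 4 of 5 isoproterenol libraries lay below every vehicle library, and the KO groups overlapped. The averaged log2 fold change of −0.19 (SE 0.053, edgeR adjusted p = 0.0139) passed in all 28 alternatives. By genotype it was −0.13 (SE 0.076, adjusted p = 0.299) in KO and −0.24 (SE 0.076, adjusted p = 0.0473) in WT hearts, and the WT call was lost in 15 of 29.

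Jph1, the junctophilin best known from skeletal muscle, had 15.2, 17.6, 18.9, 15.7 and 11.6 CPM with isoproterenol and 14.0, 16.6, 15.2, 14.5 and 15.3 CPM with vehicle in KO libraries. In WT libraries it had 11.5, 13.4, 15.0, 12.7 and 12.4 CPM with isoproterenol and 14.4, 20.8, 16.8, 14.6 and 16.1 CPM with vehicle. WT isoproterenol libraries were below every WT vehicle library in 4 of 5 cases, and the KO groups overlapped. The fold change was −0.34 (SE 0.11, edgeR adjusted p = 0.0450) on the log2 scale in WT hearts, a call lost in 13 of 29 alternatives, and 0.06 (SE 0.11, adjusted p = 0.812) in KO hearts. The highest WT vehicle value was that of replicate 2. With both libraries that stood apart left out, the WT change was −0.26 (adjusted p = 0.0512) and no longer passed. The difference between the responses, 0.40 (SE 0.15, adjusted p = 0.518), did not pass.

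Casq2, the calcium store of the cardiac reticulum, was at 415, 357, 392, 370 and 330.4 CPM in KO isoproterenol libraries, against 373, 425, 444, 422 and 398 CPM in KO vehicle libraries. In WT hearts it was at 385, 386, 409, 431 and 469 CPM with isoproterenol, against 405, 385, 375, 374 and 394 CPM with vehicle. The groups overlapped, and the log2 fold changes of −0.15 in KO (adjusted p = 0.181) and 0.11 in WT hearts (adjusted p = 0.359) did not pass in edgeR's test. The signs were opposite, and the difference between the responses was −0.25 (SE 0.094, adjusted p = 0.518).

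Casq1, the calsequestrin best known from skeletal muscle, was chosen for its values by library after these were seen. It had 2.34, 1.21, 1.85, 2.33 and 11.5 CPM in KO isoproterenol libraries, against 5.25, 4.26, 5.24, 5.19 and 6.10 CPM in KO vehicle libraries. The WT values were 3.06, 4.54, 5.40, 2.67 and 3.00 CPM with isoproterenol, against 5.92, 6.85, 6.58, 7.67 and 6.47 CPM with vehicle. Every WT isoproterenol library lay below every WT vehicle library. In KO hearts 4 of 5 did, and replicate 5 lay above all vehicle libraries. With all libraries, the log2 fold change was −0.37 (SE 0.43, edgeR adjusted p = 0.672) in KO and −0.85 (SE 0.43, adjusted p = 0.260) in WT hearts. Without KO isoproterenol replicate 5 it passed at −1.41 (adjusted p = 1.81e-05) in KO and at −0.85 (adjusted p = 6.30e-04) in WT hearts. Averaged over genotypes it was −0.61 (SE 0.31, adjusted p = 0.186) with all libraries, and with both libraries that stood apart left out it was −1.13 (adjusted p = 4.87e-07). The WT estimate hardly moved, and its adjusted p changed with the spread shared by all groups. The 8 skeletal muscle markers summed to 1.31 CPM in replicate 5, the lowest of its group, and to 1.46 to 3.06 CPM in the other 4. Only 2 of these 8 markers had counts high enough for the fit, so the sums rest on few counts. The part of skeletal muscle RNA in the Casq1 result was not tested. Casq1 overlaps the annotated gene Gm17224 on the opposite strand, and the strand setting of the counting is not given in the sources used here.

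The remaining junction members did not pass. Asph, whose locus also encodes junctin, was at 121 to 135 CPM in KO isoproterenol and 136 to 154 CPM in KO vehicle libraries, which did not overlap, yet the change of −0.15 (SE 0.062, adjusted p = 0.127) did not pass in edgeR's test. The immunophilin Fkbp1a ranged over 24.8 to 47.2 CPM. Its relative Fkbp1b, whose product binds the cardiac ryanodine receptor, ranged over 0.218 to 0.905 CPM, and its 95% interval in KO hearts ran from −1.14 to 0.24.

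In the reticulum, S100a1 fell, and the pump and its inhibitor did not pass. Atp2a2, the SERCA gene, had 4886, 4872, 5182, 5161 and 4305 CPM in KO isoproterenol libraries, against 5101, 5209, 5222, 5071 and 4968 CPM in KO vehicle libraries. In WT hearts it had 4947, 5370, 5392, 4936 and 5031 CPM with isoproterenol, against 5424, 5547, 5573, 5597 and 5551 CPM with vehicle. All WT isoproterenol libraries lay below all WT vehicle libraries, and the KO groups overlapped. The log2 fold change was −0.07 (SE 0.056, edgeR adjusted p = 0.518) in KO and −0.11 (SE 0.056, adjusted p = 0.246) in WT hearts. Its 95% interval ran from −0.19 to 0.05 in KO and from −0.23 to 0.01 in WT hearts. Averaged over genotypes the change was −0.09 (edgeR adjusted p = 0.122). That averaged change passed in 1 of 28 alternatives, namely DESeq2. Of the 100-base windows of the Atp2a2 transcript, 1.54% also occur in another annotated gene.

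Pln, the phospholamban gene, was at 1329, 1246, 1344, 1344 and 1145 CPM with isoproterenol and 1298, 1419, 1528, 1463 and 1350 CPM with vehicle in KO libraries. In WT libraries it was at 1312, 1346, 1356, 1637 and 1676 CPM with isoproterenol and 1527, 1276, 1600, 1379 and 1550 CPM with vehicle. The groups overlapped, with log2 fold changes of −0.14 in KO (edgeR adjusted p = 0.280) and −0.00 in WT hearts (adjusted p = 0.996). Pln lies on chromosome 10 and overlaps exons of Cep85l and Gm47644 on the opposite strand, which could not be told apart if strand was not used in counting.

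Because phospholamban inhibits SERCA, the Pln count was also set against the Atp2a2 count of the same library, without division by length. Pln came to 27.2%, 25.6%, 25.9%, 26.1% and 26.6% of Atp2a2 in KO isoproterenol libraries, against 25.4%, 27.3%, 29.3%, 28.8% and 27.2% in KO vehicle libraries. It came to 26.5%, 25.1%, 25.1%, 33.2% and 33.3% in WT isoproterenol libraries, against 28.2%, 23.0%, 28.7%, 24.6% and 27.9% in WT vehicle libraries. The WT isoproterenol group held both the highest values and values among the lowest. The log2 ratio differed by −0.07 between isoproterenol and vehicle in KO hearts (exact two-sided permutation p = 0.135) and by 0.11 in WT hearts (exact permutation p = 0.357). KO minus WT was 0.06 under vehicle (exact permutation p = 0.405) and −0.11 under isoproterenol (exact permutation p = 0.397). Adjusted over these 4 comparisons, every p was 0.405, where the smallest unadjusted p that 5 against 5 libraries allow is 0.00794.

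S100a1, a calcium sensor that binds the ryanodine receptor and SERCA, had 299.6, 281, 300.2, 287 and 244 CPM in KO isoproterenol libraries, against 328, 376, 383, 403 and 343 CPM in KO vehicle libraries. WT values were 297, 296, 309.5, 305 and 320.3 CPM with isoproterenol, against 364, 259.7, 327, 316 and 366 CPM with vehicle. The KO groups did not overlap, while in WT hearts the isoproterenol values lay inside the range of the vehicle values, whose lowest was that of replicate 2. The other 4 WT vehicle libraries had 316 to 366 CPM. On the log2 scale the change was −0.38 (SE 0.077, edgeR adjusted p = 0.00196) in KO and −0.10 (SE 0.077, adjusted p = 0.485) in WT hearts. The difference between the responses, −0.28 (SE 0.11, adjusted p = 0.533), did not pass, so the fall is not shown to differ between the genotypes. With both libraries that stood apart left out, the change was −0.32 (adjusted p = 3.53e-04) in KO and −0.17 (adjusted p = 0.0565) in WT hearts, and the difference between them was −0.15 (adjusted p = 0.682).

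The luminal protein Srl and the inositol trisphosphate receptors did not pass. Srl ranged over 460.3 to 739 CPM. Itpr1 ranged over 52.7 to 78.0, Itpr2 over 41.7 to 57.8 and Itpr3 over 8.05 to 13.8 CPM, and Itpr3 had 0.31 (SE 0.11, adjusted p = 0.0718) on the log2 scale in KO against −0.15 (SE 0.11, adjusted p = 0.429) in WT hearts. Stim1, the calcium sensor of the reticulum that gates Orai1, ranged over 10.8 to 14.8 CPM.

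Calmodulin transcripts rose and those of the kinases Camk2b and Camk2d fell. Calm2 had 68.2, 63.6, 57.9, 62.0 and 68.2 CPM in KO isoproterenol libraries, against 47.9, 54.4, 57.9, 53.4 and 52.9 CPM in KO vehicle libraries. In WT hearts it had 64.2, 54.6, 65.5, 61.0 and 69.6 CPM with isoproterenol, against 50.1, 50.4, 48.0, 44.1 and 44.7 CPM with vehicle. Isoproterenol libraries lay above vehicle libraries in both genotypes without overlap, in KO hearts by a margin smaller than the rounding of these values. The fitted log2 change was 0.26 (SE 0.068, edgeR adjusted p = 0.0118) in KO and 0.41 (SE 0.068, adjusted p = 1.99e-04) in WT hearts, and both calls held in all 29 alternatives.

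Calm3 had 129, 106, 113, 125 and 117 CPM with isoproterenol and 92.8, 107, 105, 97.9 and 98.3 CPM with vehicle in KO libraries. In WT libraries it had 112, 123, 129, 110.5 and 136 CPM with isoproterenol and 95.4, 93.0, 104, 99.0 and 107 CPM with vehicle. The WT groups did not overlap, and in KO hearts 1 isoproterenol library lay within the vehicle range. As a log2 fold change this was 0.23 (SE 0.067, edgeR adjusted p = 0.0241) in KO and 0.29 (SE 0.067, adjusted p = 0.00543) in WT hearts. The KO call was lost in 5 leave-one-out analyses.

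Camk2d, the CaMKII gene best known from the heart, was at 79.6, 86.7, 78.7, 78.3 and 80.0 CPM in KO isoproterenol libraries, against 88.9, 87.4, 95.3, 87.8 and 90.6 CPM in KO vehicle libraries. It was at 73.9, 76.7, 78.8, 71.3 and 85.0 CPM in WT isoproterenol libraries, against 90.1, 89.9, 86.0, 89.1 and 85.4 CPM in WT vehicle libraries. All isoproterenol libraries lay below all vehicle libraries of their genotype. The change on the log2 scale was −0.16 (SE 0.055, edgeR adjusted p = 0.0698) in KO, −0.19 (SE 0.055, adjusted p = 0.0265) in WT and −0.18 (SE 0.039, adjusted p = 0.00174) averaged over genotypes. The WT call was lost in 5 of 29 alternatives, and the averaged call held in all 28. In KO hearts the change passed in 4 of 29 alternatives, DESeq2 and limma-voom among them.

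Camk2b, the least abundant of the CaMKII genes, had 4.94, 6.73, 5.73, 5.28 and 5.43 CPM in KO isoproterenol libraries, against 5.25, 7.09, 8.89, 6.67 and 6.50 CPM in KO vehicle libraries. WT hearts had 7.45, 5.91, 6.20, 6.56 and 5.38 CPM with isoproterenol, against 9.64, 8.04, 8.59, 8.44 and 7.33 CPM with vehicle. In WT hearts 4 of 5 isoproterenol libraries lay below every vehicle library. The averaged log2 fold change was −0.35 (SE 0.085, edgeR adjusted p = 0.00386), with −0.28 (SE 0.12, adjusted p = 0.148) in KO and −0.41 (SE 0.12, adjusted p = 0.0260) in WT hearts, where the call was lost in 6 of 29 alternatives.

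Camk2a (17.0 to 30.1 CPM) and Camk2g (20.0 to 26.2 CPM) did not pass for isoproterenol, and neither did the calcineurin catalytic subunits Ppp3ca and Ppp3cb. Ppp3ca was at 38.1 to 41.1 CPM in WT isoproterenol and 33.1 to 37.9 CPM in WT vehicle libraries, without overlap, at 0.13 (SE 0.067, adjusted p = 0.233) on the log2 scale. Its averaged change was 0.11 (SE 0.048, adjusted p = 0.118), and 0.13 (adjusted p = 0.0433) with both libraries that stood apart left out. Ppp3cb ranged over 18.7 to 24.7 CPM. In mitochondria, the pore of the calcium uniporter, Mcu, ranged over 9.47 to 13.9 CPM and its gatekeeper Micu2 over 19.1 to 30.7 CPM. Their averaged log2 changes under isoproterenol were −0.03 and −0.00, with 95% intervals from −0.18 to 0.11 and from −0.13 to 0.13.

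**Figure D3:**
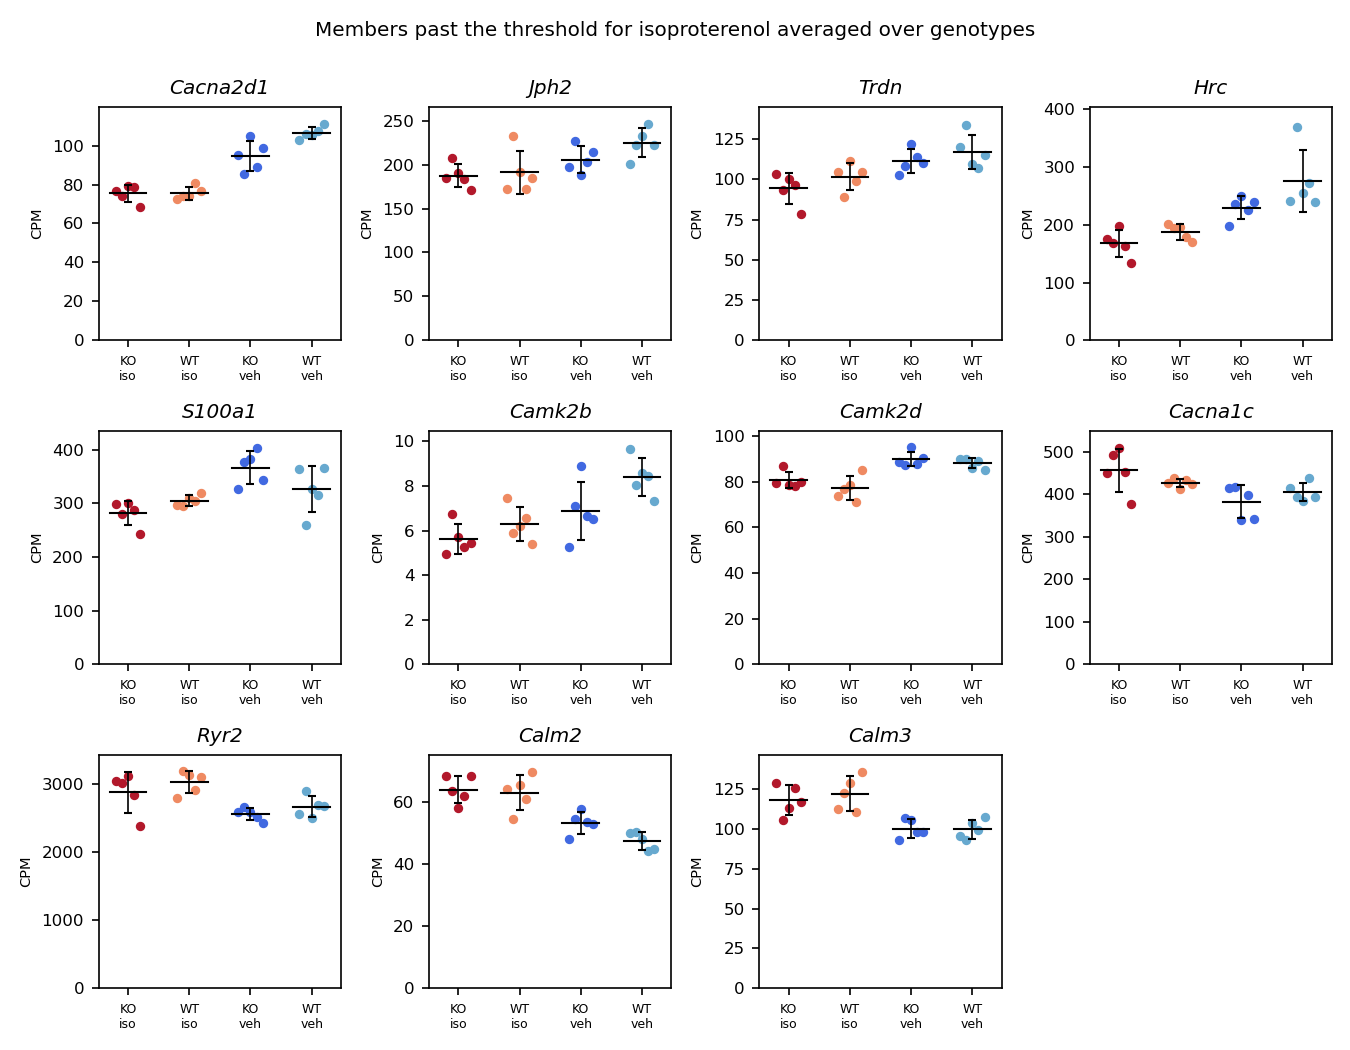
CPM in each library of the 11 genes that passed for isoproterenol averaged over genotypes, in KO isoproterenol (iso), WT isoproterenol, KO vehicle (veh) and WT vehicle hearts. Points are libraries, lines are means and bars are SDs (n = 5). For Cacna2d1, no isoproterenol library exceeds 80.7 CPM and no vehicle library is under 85.2 CPM.

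Between the groups with and without isoproterenol, complete separation was found for 6 members in KO hearts (15.8%, against 8.06% of all genes) and 8 in WT hearts (21.1%, against 8.05% of all genes). In KO these were Cacna2d1, Asph, Hrc, S100a1 and Camk2d below and Calm2 above the vehicle libraries. In WT they were Cacna2d1, Casq1, Hrc, Atp2a2 and Camk2d below and Calm2, Calm3 and Ppp3ca above.

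Between KO and WT hearts, Cacnb2 was the single member that passed, and it did so when the treatments were averaged. Under vehicle, 0 of the 38 members passed in edgeR's test, against 0.128% of all genes. At an unadjusted p under 0.05 there were 10 members, and DESeq2 and limma-voom called 1 each, Cacna1g. Over all genes, 9 were higher and 10 lower in KO, and with upper quartile scaling 9 were higher and 6 lower. Under isoproterenol 0 members passed, against 0.181% of all genes (0.0538% higher, 0.128% lower), with 8 at an unadjusted p under 0.05 and 0 by DESeq2 or limma-voom. The median log2 fold change of KO over WT was −0.04 under vehicle and −0.05 under isoproterenol. When the treatments were averaged, 1 member passed, Cacnb2, or 2.63% of the 38, against 0.847% of all genes (0.383% higher, 0.464% lower).

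Cacnb2 encodes an intracellular subunit that brings the L-type pore to the membrane. It had 79.5, 66.0, 75.2, 75.8 and 67.9 CPM in KO isoproterenol libraries, against 69.5, 82.5, 93.1, 92.9 and 87.5 CPM in WT isoproterenol libraries. Under vehicle it had 59.4, 64.6, 76.9, 75.2 and 70.2 CPM in KO, against 81.9, 79.6, 85.4, 78.2 and 87.6 CPM in WT libraries. The vehicle groups did not overlap and the isoproterenol groups did. The log2 fold change of KO over WT was −0.24 (SE 0.055, edgeR adjusted p = 0.0278) when averaged, −0.22 (SE 0.078, adjusted p = 0.230) under isoproterenol and −0.25 (SE 0.077, adjusted p = 0.258) under vehicle. The averaged call was lost in 7 leave-one-out analyses, with adjusted p-values up to 0.0684. Exons of Cacnb2 overlap Gm10849, Gm10848 and Gm13269 on the opposite strand, which could not be told apart if strand was not used in counting. Among fibroblast markers, Dcn and Lum of 8 were higher in KO in the same averaged comparison, while 0 of 10 cardiomyocyte markers passed in it, and their part in the Cacnb2 result was not tested.

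A further pair of members separated the vehicle groups without passing the test. These made 3 members with Cacnb2, or 7.89%, against 2.02% of all genes, and under isoproterenol there were 0, against 2.14%. Cacna1g, a T-type channel pore, had 10.7, 7.58, 6.78, 8.62 and 11.0 CPM in KO vehicle libraries, against 11.9, 12.7, 12.2, 16.7 and 14.9 CPM in WT vehicle libraries. KO over WT came to −0.60 (SE 0.16, edgeR adjusted p = 0.218) on the log2 scale, while the adjusted p was 0.0376 in DESeq2 and 0.0451 in limma-voom. Under isoproterenol it had 9.43, 12.9, 8.62, 8.80 and 11.2 CPM in KO, against 9.82, 15.2, 8.96, 9.84 and 8.38 CPM in WT libraries, and the change was −0.05 (SE 0.17, adjusted p = 0.943). Atp2a2, whose values are given above, was lower in every KO vehicle library than in every WT vehicle library, at −0.11 (SE 0.056, adjusted p = 0.599).

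Casq1 depended on a single library here too. KO over WT under isoproterenol was 0.12 (SE 0.45, edgeR adjusted p = 0.947) with all libraries. Without KO isoproterenol replicate 5 it was −0.92 (adjusted p = 0.0442), which turned its direction and passed the threshold. Jph1, at 0.27 (SE 0.11, adjusted p = 0.282) in this comparison, was 0.37 (adjusted p = 0.0412) with both libraries left out. Averaged over treatments, Casq1 was −0.12 (SE 0.31, adjusted p = 0.922) with all libraries and −0.64 (adjusted p = 0.0148) with both left out. In KO isoproterenol replicate 5 the smooth muscle and pericyte markers were also high, as given above, and their part in the Casq1 result was not tested.

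**Figure D4:**
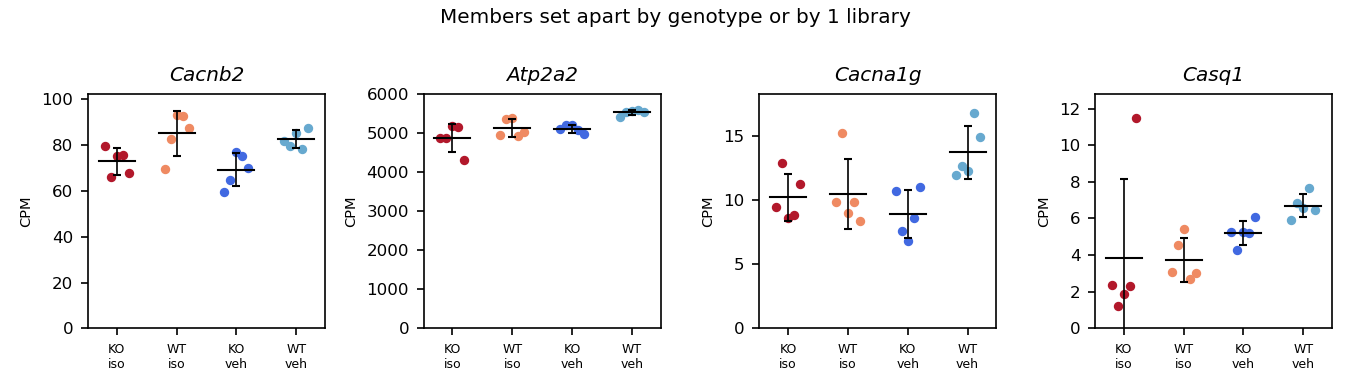
CPM in each library of 4 genes set apart by genotype or by a single library, in KO isoproterenol (iso), WT isoproterenol, KO vehicle (veh) and WT vehicle hearts. Points are libraries, lines are means and bars are SDs (n = 5), cut at 0. In Casq1, KO isoproterenol replicate 5 sits at 11.5 CPM and the other 4 at 2.34 CPM or less.

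No member's response to isoproterenol was shown to differ between KO and WT hearts. In edgeR's test of that difference 0 of 14878 genes passed, or 0% of all genes and of the members, and the smallest adjusted p among the 38 was 0.518. At an unadjusted p under 0.05 there were 7 members, and DESeq2 and limma-voom called 0 members. The 7 were Itpr3 at 0.47, Casq2 at −0.25, Jph1 at 0.40, S100a1 at −0.28, Asph at −0.21, Cacna1g at 0.55 and Srl at −0.22 on the log2 scale, KO response minus WT response. Their 95% intervals ran from 0.14 to 0.80 for Itpr3, from −0.45 to −0.05 for Casq2 and from −0.51 to −0.05 for S100a1.

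The other genes of calcium handling were counted in the same fits. Of 85 further genes in 5 lists, 84 were found and 71 tested. Averaged over genotypes, 6 rose and 13 fell under isoproterenol, with 31 at an unadjusted p under 0.05. The 19 calls were 26.8% of the 71, against 18.8% of all genes. In KO hearts 3 rose and 5 fell, and in WT hearts 1 rose and 7 fell, which is 11.3% in each, against 9.03% of all genes in KO and 8.76% in WT hearts. None of the 71 passed between KO and WT hearts in edgeR's test, under vehicle, under isoproterenol or averaged, where 5, 9 and 6 had an unadjusted p under 0.05. DESeq2 called 0, 0 and 1 of them and limma-voom 0, 0 and 2. None passed for the difference between the responses in edgeR, DESeq2 or limma-voom, with 6 at an unadjusted p under 0.05 in edgeR.

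Among channels of the sarcolemma, 2 of 24 tested rose and 3 fell, averaged over genotypes, or 20.8%, near the 18.8% of all genes. The store-operated channel Orai2 changed by 0.60 (SE 0.17, adjusted p = 0.0143) and the receptor-operated channel Trpc6 by 0.68 (SE 0.20, adjusted p = 0.0155) on the log2 scale. Both were low, with group means of 0.77 to 1.51 CPM for Orai2 and 0.361 to 0.698 CPM for Trpc6. The pore genes Cacna1s and Cacna1a fell by 0.47 and 0.28, and Cacna2d2, a relative of Cacna2d1, fell by 0.50. Of 8 dyad scaffolds 2 passed, or 25%, against the same 18.8%. Among them ankyrin B (Ank2), which anchors the exchanger, fell by 0.22 and the anchoring protein Akap6 fell by 0.11.

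In the reticulum list, 1 of 13 rose and 3 fell, or 30.8%, against 18.8% of all genes. The reticulum chaperones Calr and Canx fell by 0.32 and 0.33, and did so in both genotypes, with −0.40 in KO and −0.24 in WT hearts for Calr. Sln, which encodes the SERCA inhibitor sarcolipin of the atria, had −0.53 (SE 0.12, adjusted p = 0.00865) in KO and −0.05 (SE 0.13, adjusted p = 0.851) in WT hearts. Of 6 atrial markers, 3 fell in KO hearts, namely Sln itself, Myl7 and Myl4, and 0 rose. The part of the atrial markers in the Sln result was not tested. The pump gene Atp2a3, known from non-muscle cells, rose by 0.22 on the log2 scale. The reticulum sensor Stim2 passed in WT hearts alone, at 0.27, and with 0.06 in KO hearts the difference was not past the threshold.

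Among 16 genes of calmodulin and calcineurin signalling, 2 rose and 3 fell, or 31.2%, against 18.8% of all genes. The kinases of CaM kinases, Camkk1 and Camkk2, rose by 0.71 and 0.32, and Camkk1 was low, with group means of 0.587 to 1.045 CPM. Myoz2, which encodes the Z-disc inhibitor of calcineurin calsarcin, fell by 0.52 (SE 0.060, edgeR adjusted p = 3.41e-07). The calcineurin target Nfatc2 fell by 0.53 and the calmodulin-binding protein neurogranin (Nrgn) fell by 0.77. Nrgn was also low, with group means of 0.478 to 0.947 CPM. Of 10 mitochondrial genes 3 passed, or 30%, against 18.8% of all genes. The sodium-calcium exchanger Slc8b1 rose by 0.30, while Letm1 and Mcur1 fell by 0.18 and 0.15.

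**Figure D5:**
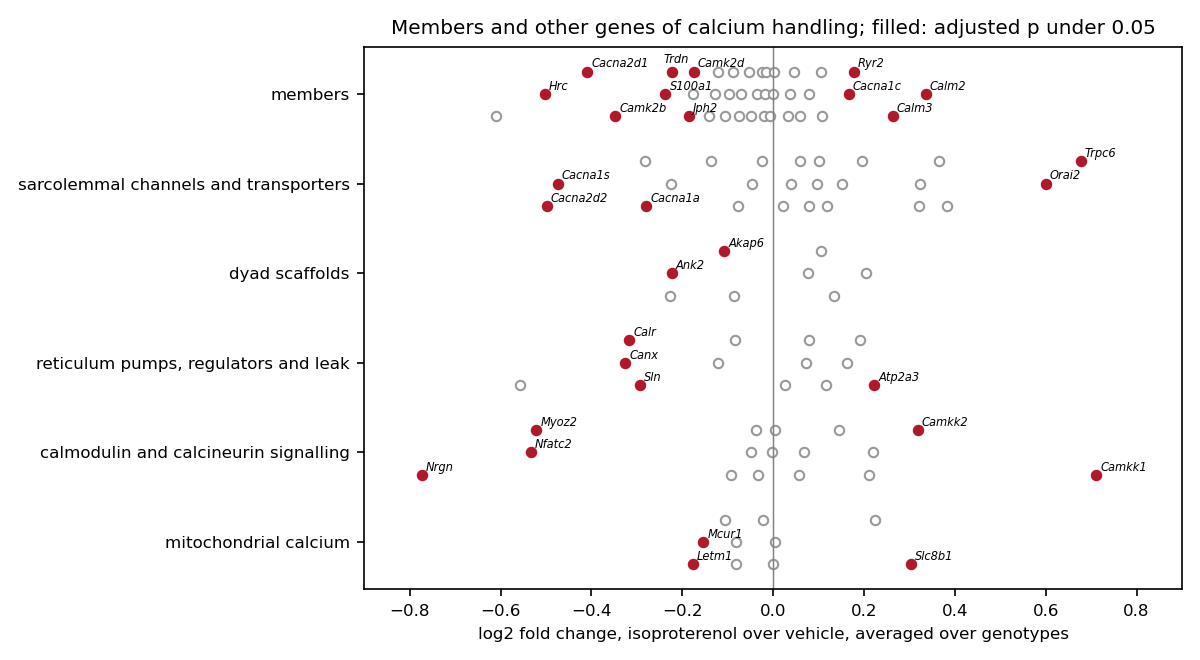
Log2 fold change of isoproterenol over vehicle, averaged over genotypes, for the 38 members (top row) and 71 other genes of calcium handling in 5 lists. Each point is a gene, staggered for reading, and filled, named points passed at an adjusted p under 0.05. Filled points lie on both sides of 0 in every row except that of dyad scaffolds.

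Markers of other cells were read in the same fits. Averaged over genotypes, 3 of 8 endothelial markers rose and 1 fell under isoproterenol, 3 of 8 smooth muscle and pericyte markers rose, and 1 of 5 tested neuron and glia markers rose. Of 6 atrial markers 1 rose (Bmp10) and 2 fell (Sln and Myl7), and 1 of 5 tested conduction system markers fell. None of the 4 tested adipocyte, 4 erythroid and 2 tested skeletal muscle markers passed. No listed marker was at 0 in every library.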

How the data were processed

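RNA from powdered whole hearts was sequenced with a TruSeq stranded kit for total RNA, per the labels. The deposited values are counts per gene from the authors, for which the submitters' processing notes name HISAT2 2.1.0, featureCounts 1.6.3, R 3.6.0, limma 3.40.6 and the build GRCm38. The strand setting of the counting is not given in the sources used here. Besides Casq1, Pln and Cacnb2, other members also overlap annotated genes on the opposite strand, Atp2a2 and Jph1 among them. The same limit holds for their counts. Gene names, exon lengths and coordinates came from GENCODE vM21.

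The 20 libraries, 5 in each of 4 groups, were fitted together in edgeR 4.0.16 (R 4.3.3) with a robust quasi-likelihood fit, TMM scaling, edgeR's default filter on low counts and Benjamini-Hochberg adjustment over all 14878 genes tested. All adjusted p-values are edgeR's unless another tool is named. The 7 comparisons were isoproterenol against vehicle in KO, in WT and averaged, KO against WT under each treatment and averaged, and the difference between the responses. Errors are the fold change divided by the root of F, with 95% intervals on 16 degrees of freedom. Total counts were 14609808 to 43671055, and replicates differed by more than counting noise (chi-square per degree of freedom of 3.82 or more). The common biological coefficient of variation was 0.119. The fit was tested on simulated data. The Pln to Atp2a2 ratio was compared by exact permutation in Python 3.11.15 with NumPy 2.4.6, and SciPy 1.17.1 gave the t quantile of the 95% intervals.

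Alternatives were DESeq2 1.42.0, limma-voom (limma 3.58.1) with quality weights, other scalings, other filters, no mitochondrial genes, a fit of the compared groups alone, and fits without 1 library. Leaving out both libraries that stood apart was added after seeing the data. Members, gene lists and tests were chosen with earlier results of these data known. Values in every library are given for members that passed in any comparison and for 7 genes whatever their p (Atp2a2, Pln, Ryr2, Casq2, Slc8a1, Cacna1c and Camk2d). Casq1 and Cacna1g were added after their values were seen. Other pathway genes are named where they passed for isoproterenol averaged over genotypes or for genotype, and Stim2 was added after its values were seen. Some genes of calcium handling are not reported here.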

Additional observations from a re-analysis of the deposited data

Results flagged for a closer look

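Among 152 pairs of a member and a group, 9 held a library whose gap to the rest was too wide by Dixon's test at the 95% level, and chance gives about 1 in 20, or 7.6 pairs. In KO isoproterenol hearts, Casq1 had 11.5 CPM in replicate 5, against 1.21 to 2.34 CPM in the other 4 libraries. Replicate 2 of that group was the highest for Stim1, at 14.8 CPM against 11.8 to 12.6 CPM, and for Camk2d, at 86.7 CPM against 78.3 to 80.0 CPM. In WT isoproterenol hearts, Cacna1g had 15.2 CPM in replicate 2 against 8.38 to 9.84 CPM, and Mcu had 13.9 CPM in replicate 4 against 9.47 to 10.4 CPM.

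In WT vehicle hearts, replicate 2 had the highest Hrc, at 369 CPM against 239.7 to 272 CPM, and the highest Fkbp1a, at 47.2 CPM against 27.5 to 31.2 CPM. Cacna1d was highest in replicate 1, at 5.51 CPM against 3.78 to 4.22 CPM. Atp2b4 was lowest in replicate 3, at 31.3 CPM against 38.6 to 41.0 CPM.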

How the results depend on the processing

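Over all alternatives the single-gene results gave 7472 values on the reported side of the threshold, of which 241 were uncalled values with the other sign. A further 67 lost a call, 48 gained one and 2 passed with the sign turned round. The last were both Casq1 between KO and WT hearts under isoproterenol, 0.12 with all libraries. It was −0.92 without KO isoproterenol replicate 5 and −0.92 without both libraries that stood apart, and leaving out single libraries gave −0.92 to 0.33. The cause was not tested.

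Between KO and WT hearts under vehicle, DESeq2 called 1 member and 72 genes, limma-voom 1 and 43, and the fit with no filter 2 (Cacna1g and Hrc) and 117, and 38 genes passed without both libraries. Under isoproterenol the numbers of genes were 133 in DESeq2, 81 in limma-voom, 250 with no filter and 50 without both libraries, where 2 members passed (Jph1 and Casq1). Averaged over treatments, DESeq2 called 225 genes, the fit with no filter 5 members (Cacna1g, Cacnb2, Hrc, Camk2a and Micu2) and 350 genes, and the fit without both libraries 2 members (Cacnb2 and Casq1). For the difference between the responses, 34 genes passed with no filter and 4 without both libraries.

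Leaving out 1 library at a time gave 4 to 8 members called for isoproterenol in KO, with 4 without KO vehicle replicate 5. It gave 5 to 11 in WT, with 5 without WT isoproterenol replicate 1, 4 or 5 or WT vehicle replicate 3 or 4, and 10 to 13 when averaged. For KO against WT it gave 0 to 0 under vehicle, 0 to 1 under isoproterenol and 0 to 2 averaged, and for the difference between responses 0 to 0. Over all genes these ranges were 1001 to 1442 in KO, 882 to 1686 in WT and 2381 to 2872 averaged for isoproterenol. They were 10 to 35 under vehicle, 10 to 55 under isoproterenol and 74 to 143 averaged for genotype, and 0 to 1 for the difference.

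No paired analysis was possible because the labels give no replicate numbers, and those used here only name libraries. Counting depth limits Fkbp1b, with 4 to 24 counts per library, and Trpc6, Nrgn, Camkk1 and Orai2 of the other pathway genes were low as well.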

Other observations

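KO isoproterenol replicate 5 had the lowest value of its group for 16 of the 38 members. In KO vehicle hearts, replicate 3 had the highest value of its group for 20 of the 38 members and replicate 1 the lowest for 17. In WT isoproterenol hearts, replicate 1 had the lowest value for 14.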
